A study of Arabidopsis thaliana with 5 samples.

Results

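The transcriptome of wild-type (WT) leaf epidermal cells of Arabidopsis thaliana was described from the 3 WT libraries of a series of 5, across all 24200 genes of the deposited gene table. The libraries were chosen by their label alone, so no measured value entered the choice. The other 2 libraries come from the hdl-1 mutant and are not used here. All plants, WT included, carried a reporter in which the AtML1 promoter drives RCI2A-mCherry, a red fluorescent protein fused to a small membrane protein. Seedlings at 9 days post germination (dpg), grown in long days on half-strength Murashige and Skoog medium, were turned into protoplasts, and about 20000 red cells per sample were collected by fluorescence-activated sorting. Libraries were built with a TruSeq RNA kit from 10 to 20 ng of RNA, and all carry batch number 1. The labels do not state whether the 3 WT libraries came from separate plantings, so the spread between them may be technical in part. There is no contrast between groups here, and therefore no test: levels and ranks are given as descriptions with the spread over 3 libraries.

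The leaf epidermis is the outer cell layer of the leaf. It holds lobed pavement cells, pairs of guard cells that open and close stomata, and hair cells called trichomes, and it secretes the waxy cuticle that limits water loss. Its identity depends on homeodomain-leucine zipper factors of class IV, above all ATML1 and PDF2, which bind a short DNA sequence called the L1 box found in promoters of epidermal genes. Pavement cells have few developed chloroplasts, whereas mesophyll cells beneath them carry most of the leaf's photosynthesis.

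The recovered gene reads were 18929251 in replicate 1, 15418154 in replicate 2 and 22838239 in replicate 3. A gene was called measured at 10 or more normalized counts in at least 2 of the 3 libraries, which held for 19950 genes, or 82.4% of the table. A further 384 genes had no read in any WT library. A library without a read for a gene allows up to 3 reads, which correspond to 3.2, 3.8 and 2.5 normalized counts in replicates 1, 2 and 3. This floor covers counting error only. Levels of different genes are compared per kilobase of exon. Within each library the 19929 measured genes with a known length were ranked on that scale and given a percentile from 0 to 100, where 100 is the highest. A gene's percentile is the mean over the 3 libraries, and its rank spread is the highest minus the lowest of its 3 percentiles.

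Replicate 2 stood apart from the other WT libraries. The Spearman correlation of levels per kilobase across genes was 0.984 between replicates 1 and 3, and 0.936 between replicate 2 and either of them. Genes are not independent replicates, so these values only describe the libraries. Replicate 2 was the library farthest from the other two in 59.5% of measured genes, against 20.8% for replicate 1 and 19.8% for replicate 3. The biological coefficient of variation estimated by edgeR, which is the spread beyond counting error, was 13.5% for replicates 1 and 3 and 30.7% for all 3 libraries. For the pairs with replicate 2 it was 36.7% (replicates 1 and 2) and 36.6% (replicates 2 and 3). Replicate 2 also had 249 genes without a read that had 10 or more normalized counts in both others, whereas replicate 1 had 23 such genes and replicate 3 had 10. At the depth of replicate 2, the levels in the others correspond to a median of 16.0 expected reads for those 249 genes. No pair of libraries agreed within sampling noise, since the mean chi-square value per gene was 9.80 for replicates 1 and 3, the closest pair, where counting error alone gives a mean near 1. Because replicate 2 stood apart, some results are also given without it, but most list medians are given over all 3 libraries only.

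ATML1, PDF2 and PDF1, the genes taken as epidermal markers, were measured in every library. ATML1 encodes a homeodomain factor that specifies epidermal cells, and it had 2549, 4183 and 2582 normalized counts in replicates 1, 2 and 3. Replicate 2 was the highest of the 3, and replicates 1 and 3 lay close together. Its percentiles were 82.0, 89.5 and 82.7, so that its rank spread was 7.51 points. The reporter used for sorting is driven by the promoter of the same gene. PDF2, the close relative of ATML1, had 1662, 1740 and 1393 normalized counts, at a mean percentile of 77.0. PDF1 encodes a proline-rich protein of the outermost cell layer and was the most abundant member of the epidermal identity list per kilobase. Its values were 3478, 3637 and 3113 normalized counts, and its 3 percentiles lay within 0.487 points of each other at a mean of 96.4. Without the length correction the percentiles of ATML1 and PDF2 were 94.4 and 88.2, and that of PDF1 was 95.3.

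The epidermal identity list held 14 genes, of which 13 were measured, with a median percentile of 59.1. By construction the median over all measured genes lies at 50. Of the 13, 2 had a percentile above 90, a threshold passed by 9.53% of all measured genes with a length. FDH (KCS10), an enzyme of very-long-chain fatty acid elongation that keeps organs from fusing, was at 4056, 4666 and 4073 normalized counts and a mean percentile of 95.1. The homeodomain gene HDG11, which acts in trichome branching, was the lowest at 41.4, 21.8 and 26.7 normalized counts. Values of the receptor kinase gene ALE2 were 1395, 1419 and 1765, and those of DEK1, a calpain needed to form the outer layer, were 1798, 1409 and 1849. ALE1, a subtilisin-like protease gene that acts on the embryo surface, had at most 2.12 normalized counts, below the floor of each library. The median percentile of the list was sensitive to gene models: it was 80.3 without the length correction and 71.9 without genes that share bases with an opposite-strand gene.

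The promoter of FDH is shown because it is the highest member of the epidermal identity list with an L1 box, TAAATGCA or TAAATGTA on either strand, in the 250 bases before the annotated start. It lies on the minus strand of chromosome 2, at chr2:11173279-11173528 of TAIR10.1, and capitals mark the L1 box, whose first base is 54 bases before the start.
FDH: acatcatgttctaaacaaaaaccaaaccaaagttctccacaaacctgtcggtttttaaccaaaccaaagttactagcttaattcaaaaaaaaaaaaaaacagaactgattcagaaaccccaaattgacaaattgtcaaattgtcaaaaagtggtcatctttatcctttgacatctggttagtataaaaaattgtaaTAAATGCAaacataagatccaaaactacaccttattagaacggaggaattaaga
An L1 box lay between 250 bases before and 50 bases after the start in 4 of the 13 measured epidermal identity genes. The same window held one in 5.17% of the 19601 measured protein-coding genes with a full window, and in 5.10% of all 27443 annotated ones. Across 10 equal groups of genes ordered by level the share lay between 4.46 and 5.73%.

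The genes that build the cuticle spanned nearly the whole range of levels. In the wax list 11 of 14 genes were measured at a median percentile of 79.4, and in the list for cuticle export and its regulation 10 of 14 were measured at 80.7. KCS1 and KCS20, which elongate fatty acids, had percentiles of 95.0 and 94.8, and CER6, the main elongating enzyme of stem wax, had 4063, 5593 and 3700 normalized counts. LTP1, an abundant lipid transfer protein, was the highest cuticle gene per kilobase at 7522, 4140 and 6601 normalized counts, and replicate 2 was the lowest. CER1, which forms alkanes, had only 219, 25.6 and 151 normalized counts. The transcription factor genes WIN1, SHN2 and SHN3 were not measured, and SHN2 had no read in any WT library. The cutin list was lower, with 10 of 11 genes measured at a median percentile of 46.1. CYP86A2, a fatty acid hydroxylase, led it at 3761, 2344 and 3267 normalized counts, and CYP77A6 was the lowest at 10.6, 32.0 and 10.0.

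Genes of stomata, guard cells and trichomes had list medians under 50, whereas that of pavement cell shape was above it. In the stomatal lineage list 19 of 20 genes were measured at a median percentile of 41.5. None of the list was above 90, against 9.53% of all measured genes with a length. Its highest member per kilobase was ICE1 (SCRM), a partner of the stomatal regulators SPCH, MUTE and FAMA, at 837, 1111 and 911 normalized counts. SPCH, which starts the lineage, had 106, 61.5 and 72.6 normalized counts. FAMA, which acts at the last step of guard cell formation, had 178, 347 and 250, and MUTE was not measured at 4.24, 1.28 and 6.67. The secreted peptide gene EPF1 was the lowest measured member, with 24.4, 0 and 14.2 normalized counts. In bulk libraries fewer cells of a type and less RNA per cell cannot be told apart.

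The guard cell list had 14 of 15 genes measured at a median percentile of 36.6. The plasma membrane proton pump gene AHA1, which is active in most plant cells, was its highest member at 8336, 8930 and 8674 normalized counts and had a rank spread of 0.572 points. The potassium channel gene GORK was the lowest at 32.9, 16.7 and 29.2. Trichome genes were the least often measured of the leaf lists, at 9 of 19, although none of the 19 was at 0 in all 3 libraries. Over the whole table the share measured was 82.4%. GL1 and GL3, 2 central trichome regulators, had 0 to 8.49 and 0 to 13.3 normalized counts and were not measured. TTG1, a partner protein of many such complexes, had 949, 1366 and 982. GL2, a homeodomain factor of trichome outgrowth, had 1320, 861 and 1099 normalized counts but shares bases with an opposite-strand gene. All 12 genes of pavement cell shape were measured, at a median percentile of 70.5. The small GTPase gene ROP2 led them at 984, 1041 and 1082 normalized counts, and its partner gene RIC1 was the lowest at 32.9, 52.5 and 55.9.

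The most abundant transcripts were those of photosynthesis. Per kilobase, RBCS1A, a small subunit of the carbon-fixing enzyme Rubisco, was first in replicates 1 and 3 and ranked 3 in replicate 2. It had 269270, 177591 and 229938 normalized counts, or 177918 ± 36272 per kilobase (mean ± SD, n = 3). CAB1, a chlorophyll-binding antenna protein of photosystem II, came next at 198465, 224505 and 163704 normalized counts. CAB1 was first in replicate 2. The antenna gene LHB1B2 followed at 124860, 173171 and 99516 normalized counts, and CAB2 at 111699, 105216 and 94423. RBCS3B, RCA, PSAF, PSBO1, LHCB3, LHCA1, LHCA4, PSAG, CAB3, LHCB4.1 and PSAL were also among the 20 highest genes per kilobase. RBCS, CAB and LHB1B genes have near-identical copies, and no source used here says how the counting split shared reads, so values of single copies are uncertain. CAB1, LHB1B2, RCA, LHCA4, LHCB3 and PSAG also share bases with an opposite-strand gene, and no source used here says whether the counting used strand.

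The other 5 of the 20 highest genes were of varied function. AGP1, an arabinogalactan protein of the cell surface, had 49137, 69521 and 49125 normalized counts, so that replicates 1 and 3 coincided and replicate 2 was higher. UBQ10, a polyubiquitin gene often used as a reference, had 86759, 83181 and 80163. ERD15, a dehydration-responsive gene, had 57338, 59095 and 51335 normalized counts, and HSPRO2, an Arabidopsis relative of a nematode resistance gene of sugar beet, had 66201, 97673 and 57664. The fifth was AT5G01595, an RNA without a protein, at 19244, 23802 and 16438 normalized counts. Its annotated exon is 264 bases long, shorter than the fragments of many libraries, and it shares bases with an opposite-strand gene, so its level per kilobase is uncertain. PEN3, a plasma membrane transporter of plant defence, was among the 10 highest genes by normalized counts at 76967, 92293 and 69996, and ranked 71 per kilobase.

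All 27 genes of the mesophyll and photosynthesis list were measured, at a median percentile of 99.88. All 27 were above the 90th percentile, against 9.53% of all measured genes with a length. Together they held 9.13, 8.23 and 8.07% of the summed normalized counts in replicates 1, 2 and 3. The lowest was RBCS1B, another Rubisco subunit gene, at 11740, 2021 and 10415 normalized counts, and it was the only member over 2-fold below both other libraries in replicate 2, against 8.19% of all measured genes. No WT library of unsorted leaf is among those described, so the share that came from other cells than epidermal ones was not tested. A list of 15 genes of the Calvin cycle and of chlorophyll synthesis, chosen after its values were seen, had a median percentile of 98.7, with 14 members above 90. In that list FBA2, an aldolase, had 64000, 30644 and 53314 normalized counts. PORB, which reduces protochlorophyllide in the light, had 1520, 6413 and 1387, with replicate 2 the highest.

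**Figure D1:**
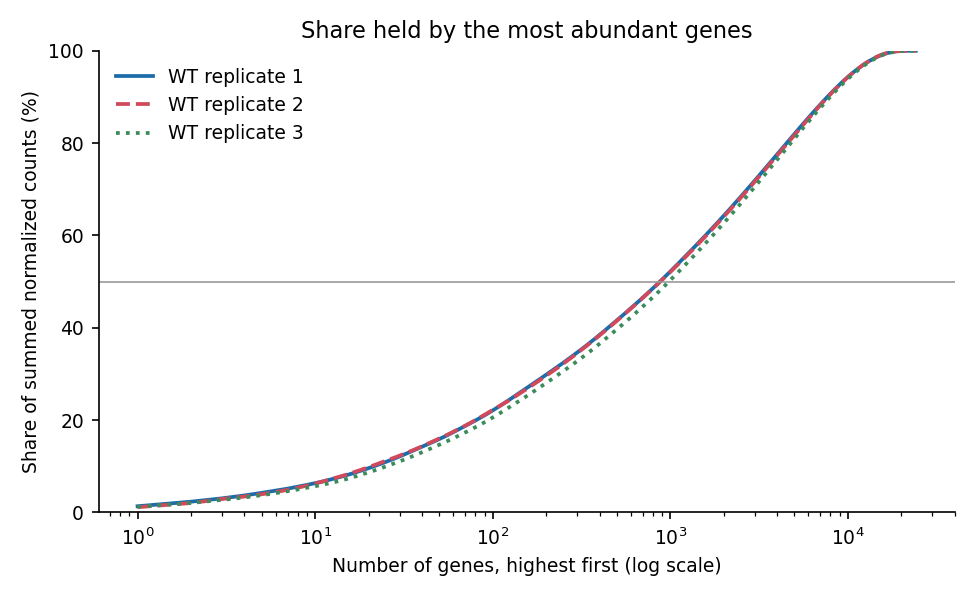
Share of the summed normalized counts (y axis, percent) held by the most abundant genes of each WT library (x axis, number of genes from the highest down, log scale). The horizontal line marks 50%, which the 3 libraries reach at 877, 880 and 984 genes.

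A small number of genes held much of the sum. The 100 genes with the highest mean normalized counts held 21.3 ± 0.777% of the sum (mean ± SD, n = 3), and 21.3% without replicate 2. The 1000 highest held 51.0 ± 0.968%. As the plot of cumulative shares shows, 50% of the sum was reached at 877, 880 and 984 genes in replicates 1, 2 and 3. The 100 highest genes of each library had 76 genes in common. RBCS1A alone held 1.15 ± 0.227% of the sum. Protein-coding genes made up 99.3% of the sum, and 194 of 216 long non-coding RNA genes of the table were measured, at a median percentile of 40.4.

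LHCB6, the gene of a minor antenna protein of photosystem II, is shown because it is the highest gene described as chlorophyll-binding or photosystem with both a G box (CACGTG) and an I box (GATAAG) before its start. It had 47895, 37854 and 39981 normalized counts and shares bases with an opposite-strand gene. The promoter lies on the minus strand at chr1:5447881-5448130 of TAIR10.1. Capitals mark the G box, 124 bases before the start, and the I box, 86 bases before it.
LHCB6: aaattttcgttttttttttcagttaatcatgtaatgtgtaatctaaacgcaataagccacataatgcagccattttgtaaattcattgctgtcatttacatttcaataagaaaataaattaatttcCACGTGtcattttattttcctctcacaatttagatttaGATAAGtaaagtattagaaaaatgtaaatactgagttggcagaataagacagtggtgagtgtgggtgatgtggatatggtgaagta
Of the 65 measured photosystem genes with a full window, 33.8% held a G box and 40.0% an I box on either strand. The shares over all measured protein-coding genes were 8.88 and 14.8%, and over all annotated ones 7.68 and 14.6%. The G box was held by 7.33% of the lowest of the 10 level groups and by 12.2% of the highest. I box shares were 12.5% in the lowest and 19.3% in the highest group. The I box was chosen for the search after values had been seen. A match is a description of the letters in the window and not a binding site.

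**Figure D2:**
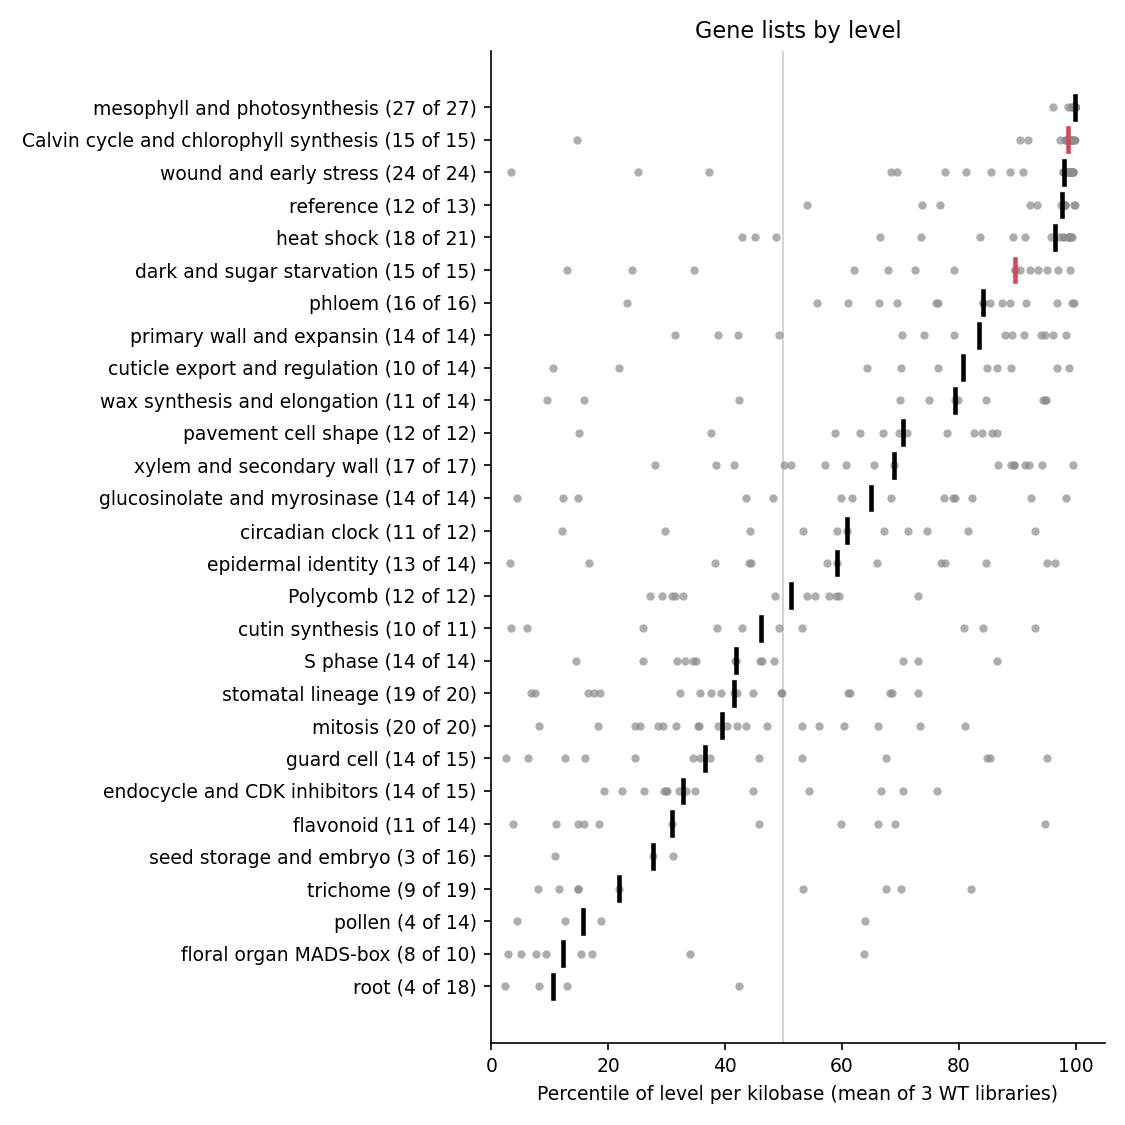
Percentile of the level per kilobase (x axis, 100 is the highest, mean of 3 WT libraries) for the measured members of each gene list (y axis, with the number measured of the number listed). Grey points are genes, black bars are list medians, and red bars mark the medians of the 2 lists added after values were seen. The other lists were chosen with earlier results of these data known. Photosynthesis lies at 99.88 and the root list, with 4 measured genes, at 10.6. Without replicate 3 the root list lies at 24.6, with fewer genes measured.

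Markers of vascular cells were also abundant, as the plot of gene lists shows. All 16 phloem genes were measured, at a median percentile of 84.1. Of these 4 were above 90, against 9.53% of all measured genes with a length. The summed normalized counts of the 16 were 109441, 77623 and 118985. SEOR2 (SEOa), a protein of sieve elements, had 52575, 37802 and 58352 normalized counts, and SEOR1 had 31000, 23098 and 32766. Values of SUC2, the sucrose transporter of companion cells, were 1722, 983 and 1927, and replicate 2 was the lowest. The lowest phloem gene per kilobase was SULTR2;2 (AST56), a sulfate transporter gene, at 130, 122 and 130 normalized counts. None of the 16 was at 0 in any library, and their part in other results was not tested.

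All 17 genes of xylem and secondary walls were measured, at a median percentile of 69.0, and at 77.6 without replicate 2. Summed normalized counts were 62929, 30150 and 59677, or 0.313, 0.153 and 0.313% of each library. XCP2, a peptidase of dying xylem cells, led the list at 28507, 14980 and 28250 normalized counts. MYB83, a regulator of secondary walls, was the lowest at 126, 104 and 139. In replicate 2, 9 of the 17 were over 2-fold below both other libraries, against 8.19% of all measured genes, and none was above them. Their 9 include the nuclease gene BFN1, the ribonuclease gene RNS3 and the metacaspase gene MC9, all known from cells that die as xylem forms. MC9 had 386, 34.6 and 427 normalized counts. The xylem list was chosen with earlier results of these data known, so its counts are no independent evidence of a direction.

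Markers of root, pollen and seed were measured in few cases. Of 18 root genes 4 were measured, of 14 pollen genes 4, and of 16 seed genes 3, against 82.4% of the whole table. Only 15 of the root genes, 11 of the pollen genes and 11 of the seed genes had a row in the gene table. Their summed normalized counts per library were 301 to 348 for root, 617 to 980 for pollen and 164 to 265 for seed. The root genes IRT1 and PLT2, the seed gene OLEO1 and the floral gene AP1 had no read in any WT library. ESB1, a gene of root barrier formation, was the highest root gene at 213, 263 and 191 normalized counts, but shares bases with an opposite-strand gene. COBL9 (SHV2) was the lowest measured root gene at 27.6, 2.56 and 10.0. AGL65 led the pollen list at 569, 423 and 816 normalized counts, and AGP11 was its lowest measured member at 12.7, 0 and 10.0. In the seed list EM6 (GEA6) led at 62.6, 85.8 and 33.4, and PAP85 was lowest at 31.8, 89.7 and 8.34. The floral list, by contrast, had 8 of 10 genes measured, near the share of the whole table, but at a median percentile of 12.3. SEP3, a floral organ MADS-box gene, was its highest member at 347, 302 and 359 normalized counts, and AP3 was the lowest measured at 14.9, 0 and 12.5.

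Stress genes stood high in all 3 libraries. In the heat shock list 18 of 21 genes were measured at a median percentile of 96.6. The 3 not measured had no match in the annotation or no row in the gene table. Of the 18 measured, 11 were above 90, against 9.53% of all measured genes with a length. HSC70-1, a constitutive chaperone, led them at 31603, 22472 and 33218 normalized counts, and HSP101, the chaperone that dissolves protein aggregates after heat, had 21648, 17599 and 25506. HSFA7A was the lowest at 126, 208 and 131. All 24 genes of wounding and early stress were measured, at a median percentile of 98.1, and 15 were above 90, against the same 9.53%. ZAT12 (RHL41), a zinc finger factor that many stresses raise, had 13704, 16424 and 13146 normalized counts, and LOX3, a lipoxygenase of jasmonate synthesis, had 47374, 29505 and 39235. VSP1, a storage protein gene under jasmonate control, was the lowest at 10.6, 10.2 and 14.2 normalized counts. Cells were isolated as protoplasts before sorting, and with no intact-leaf library among those described, the part of that step was not tested. The highest share of the sum held by the wounding list was 1.29%, in replicate 2, and the lowest 1.2%, in replicate 3.

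Growth and division genes lay in the middle of the range. The lists for S phase, mitosis and the endocycle had median percentiles of 41.8, 39.6 and 32.7. No member of the 3 lists was above 90, against 9.53% of all measured genes with a length. TSO2, a ribonucleotide reductase gene, led S phase at 1527, 934 and 1575 normalized counts, and CDC6 was lowest at 40.3, 124 and 60.9. The cytokinesis syntaxin gene KN (SYP111) led mitosis at 806, 658 and 803, and the cyclin gene CYCB2;1 was lowest at 27, 24 and 37. CCS52B (FZR3) led the endocycle list at 732, 857 and 887 normalized counts, and DEL1, which holds back endoreduplication, was lowest at 62.6, 91.0 and 95.1. Primary wall genes were higher, with a median percentile of 83.6 and 5 of 14 above 90. KOR1 (GH9A1), an endoglucanase that works with cellulose synthase, had 12469, 10904 and 12013 normalized counts, and the expansin gene EXPA11 was the lowest at 146, 61.5 and 132. The list of Polycomb genes, whose products silence chromatin, had all 12 measured at a median of 51.4, from RING1B at 144, 187 and 181 to MSI1 at 641, 628 and 555 normalized counts. Common reference genes had a median percentile of 97.8, with CBP20 the lowest at 276, 338 and 213 normalized counts.

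Among genes grouped by the words of their annotation, those described as chlorophyll-binding or photosystem had the highest median percentile, 99.6, over 66 measured genes. Of 331 genes described as ribosomal protein 316 were measured, at a median of 86.4. Of these 137 were above 90, against 9.53% of all measured genes with a length. The ribosomal protein genes held 2.64, 2.12 and 2.61% of the sum in replicates 1, 2 and 3. Tubulin genes (28 of 28 measured) and aquaporin genes (27 of 35) both had a median of 87.7. Pentatricopeptide repeat genes, which act in RNA processing of organelles, were measured in 282 of 297 cases but at a median of only 21.4. F-box genes were measured in 51.5% of 445 cases, at a median of 23.7.

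EMB3113, a plastid ribosomal protein S5, is shown because it is the highest gene described as ribosomal protein, elongation factors aside, with both a telo box (AAACCCTA) and a site II element (TGGGCC) before its start. It had 7488, 6523 and 5919 normalized counts. The promoter lies on the minus strand at chr2:14302497-14302746 of TAIR10.1. Capitals mark the telo box, on the opposite strand 139 bases before the start, and the site II element, 82 bases before it.
EMB3113: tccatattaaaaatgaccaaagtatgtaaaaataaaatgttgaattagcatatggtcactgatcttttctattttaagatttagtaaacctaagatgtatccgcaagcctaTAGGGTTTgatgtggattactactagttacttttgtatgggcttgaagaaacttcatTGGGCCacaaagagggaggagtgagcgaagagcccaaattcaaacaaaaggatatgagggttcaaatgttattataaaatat
Of the 316 ribosomal protein genes, 35.8% held a telo box and 54.7% a site II element. Over all measured protein-coding genes the shares were 5.71 and 19.0%, and over all annotated ones 6.22 and 15.5%. The share with a site II element was 11% in the lowest level group and 22.8% in the highest, while that with a telo box was 6.92 and 6.99%. A TATA box (TATAAA) was in 53.1% of the lowest and 53.9% of the highest group. The heat shock element (GAANNTTC) was in 7 of 18 heat shock list genes and in 11.7% of measured genes.

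Across 19602 protein-coding genes the level per kilobase had a Spearman correlation of -0.04 with exon length, 0.04 with the number of introns and 0.16 with exon GC content. Before the length correction the correlation with exon length was 0.27. Median percentiles by chromosome lay between 48.7 on chromosome 1 and 51.4 on chromosome 4. Neighbouring measured genes had a correlation of 0.08 between their percentiles.

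**Figure D3:**
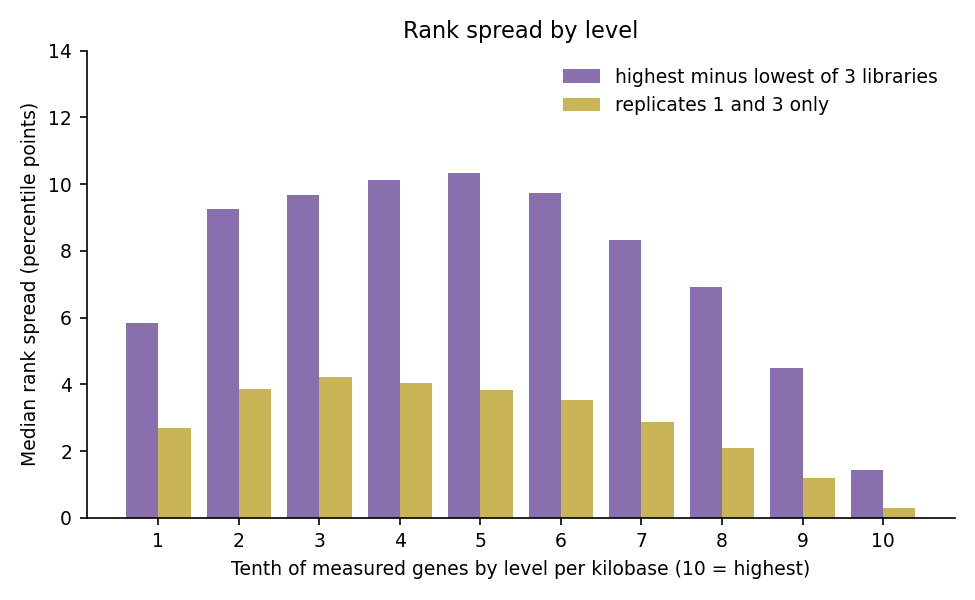
Median rank spread in percentile points (y axis) for 10 equal groups of the 19929 measured genes by level per kilobase (x axis, 10 is the highest). Purple bars use all 3 WT libraries and yellow bars replicates 1 and 3 only; both are lowest in group 10, at 1.44 and 0.291 points.

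The rank spread was smallest at the top of the range, where percentiles leave little room to differ. On the log2 scale the highest of the 10 level groups had a median SD of 0.23, against 0.23, 0.22 and 0.22 in groups 7, 8 and 9. Its levels were thus not closer between libraries than in those groups. They were closer than in groups 1 to 6, where the median SD was 0.74 in group 1, 0.28 in group 5 and 0.25 in group 6. The median rank spread over all genes was 7.35 percentile points, with quartiles of 3.81 and 12.3 points. It was 2.51 points without replicate 2, 5.34 without replicate 1 and 5.30 without replicate 3. A spread over 3 libraries is never smaller than a difference between 2 of them, so pairs are best compared with pairs. In the highest of the 10 level groups the median over all 3 libraries was 1.44 points, and in group 5 it was 10.3. The lowest group had a median of 5.85. A rank spread over 10 points was found in 6933 genes, or 34.8%, and between replicates 1 and 3 alone in 1233 genes, or 6.19%. Between replicates 1 and 2 alone the share was 25.8%, and between replicates 2 and 3 alone 25.7%. With genes split into 10 groups by reads, the trended biological coefficient of variation from edgeR had a median of 56.0% in the lowest, 23.1% in group 8 and 25.8% in the highest. The largest rank spread, 82.4 points, belonged to AT3G62550, which was high in replicate 2.

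Among the lists, the photosynthesis genes had the smallest median rank spread, 0.0452 points, and reference genes had 0.933 points. Both lists stand near the top of the range, where percentiles leave little room to differ. Their small spreads thus do not show closer levels between libraries. The lists with the largest medians and at least 10 measured genes were glucosinolate and myrosinase at 19.0 points, the circadian clock at 17.9, S phase at 13.0, flavonoid at 11.8, and xylem and secondary wall at 11.5. Between replicates 1 and 3 alone the medians of these 5 lists were 2.62, 1.87, 3.52, 3.59 and 0.898 points. Part of that drop is by construction, since a difference between 2 libraries cannot exceed the spread over all 3. The epidermal identity list had 2 of 13 members over 10 points, against 34.8% of all measured genes with a length: ACR4, a receptor kinase of the outer layer, at 13.7 points and HDG1 at 12.8. Leaving out replicate 2 moved no list median percentile by more than 8.84 points. The largest shift on leaving out a replicate was 14.9 points without replicate 1, where the flavonoid median went from 31.0 to 45.9. With 2 libraries left, a measured gene needed 10 or more normalized counts in both, so the genes behind a median could change. TT7, at 7.69 normalized counts in replicate 2, dropped out of the flavonoid list, so that shift is not the effect of replicate 1 on the same genes. Without replicate 3 the root median went from 10.6, over 4 genes, to 24.6 over fewer genes. COBL9, at 2.56 normalized counts in replicate 2, was then no longer measured.

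Among the 3953 genes with a mean of at least 1000 normalized counts, the 5 with the smallest spread were VCL1, AT3G14600, AT5G55660, AT3G50370 and RPT5A. VCL1, which acts in vacuole formation, had 1011, 1016 and 1015 normalized counts, at percentiles within 0.396 points. AT3G14600, of the ribosomal protein L18ae family, had 1812, 1802 and 1813, and the proteasome gene RPT5A had 2416, 2442 and 2419. AT5G55660, a DEK domain chromatin protein gene, had 1414, 1423 and 1409 normalized counts, and AT3G50370, without a described function, had 3931, 3930 and 3894. VCL1 shares bases with an opposite-strand gene.

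**Figure D4:**
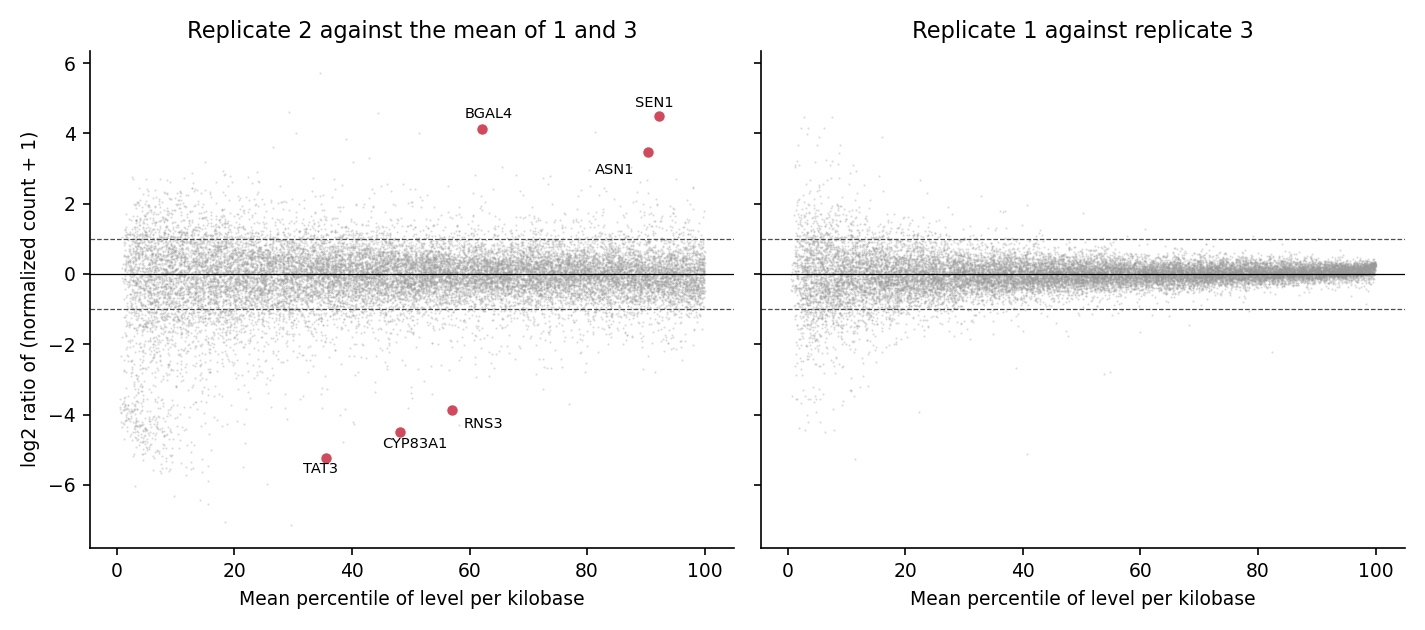
Log2 ratio of normalized count + 1 (y axis) against the mean percentile of level per kilobase (x axis) for 19929 measured genes. The left panel sets replicate 2 against the mean of replicates 1 and 3 and the right panel sets replicate 1 against replicate 3; dashed lines mark 2-fold, and red points on the left are 3 genes high and 3 genes low in replicate 2.

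A gene was counted as apart in a library when its normalized count + 1 was over 2-fold above, or over 2-fold below, both other libraries. In replicate 2, 880 genes (4.41%) were above and 1634 (8.19%) below both others. The counts were 108 (0.541%) above and 310 (1.55%) below in replicate 1, and 149 (0.747%) above and 222 (1.11%) below in replicate 3. Of the genes below in replicate 2, 523 were in the lowest level group and 78 in the highest, while of those above 144 were in the lowest and 81 in the highest. The plot of library ratios shows the wider spread of replicate 2. These counts need 3 libraries and cannot be had without replicate 2.

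SEN1 (AT4G35770), a gene named for senescence and raised by darkness and sugar lack, had 1129, 25353 and 1123 normalized counts. Replicate 2 was 22.5-fold above the mean of the other 2 libraries, which had nearly equal values. BGAL4, a beta-galactosidase gene, had 552, 9425 and 520 normalized counts, 18-fold above that mean. AT3G62550, of a family that binds adenine nucleotides, had 18.0, 1068 and 20.8, so that its percentile was 7.0 in replicate 1, 89.3 in replicate 2 and 7.6 in replicate 3. AT4G25580, a CAP160 family gene, had 30.8, 895 and 40.9, and AT4G37220, of the WCOR413 cold acclimation family, had 32.9, 1025 and 50.9 normalized counts. These were the 5 genes furthest above both others, among 14994 with a mean of at least 100.

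A list of 15 genes known to rise in darkness or sugar starvation was then assembled. It was chosen after the values were seen, so its counts are no independent evidence of a direction. In replicate 2, 9 of the 15 were above both others by over 2-fold, against 4.41% of all measured genes, and none was below, and the list held 0.211, 0.740 and 0.214% of the sum in replicates 1, 2 and 3. ASN1, an asparagine synthetase of dark metabolism, had 2108, 21907 and 1879 normalized counts. DIN10, a raffinose synthase family gene, was the most abundant at 17959, 47442 and 16795, and DIN2, a beta-glucosidase, the lowest at 47.7, 170 and 7.51. DIN4 and BCAT2, both of branched-chain amino acid turnover, had 351, 2200 and 316 and 290, 2460 and 413 normalized counts. The dormancy-associated gene DRM2 (AT2G33830) had 1643, 10089 and 1461. The trehalose phosphate synthase family genes TPS8, TPS9, TPS10 and TPS11 were all highest in replicate 2, but none passed 2-fold.

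**Figure D5:**
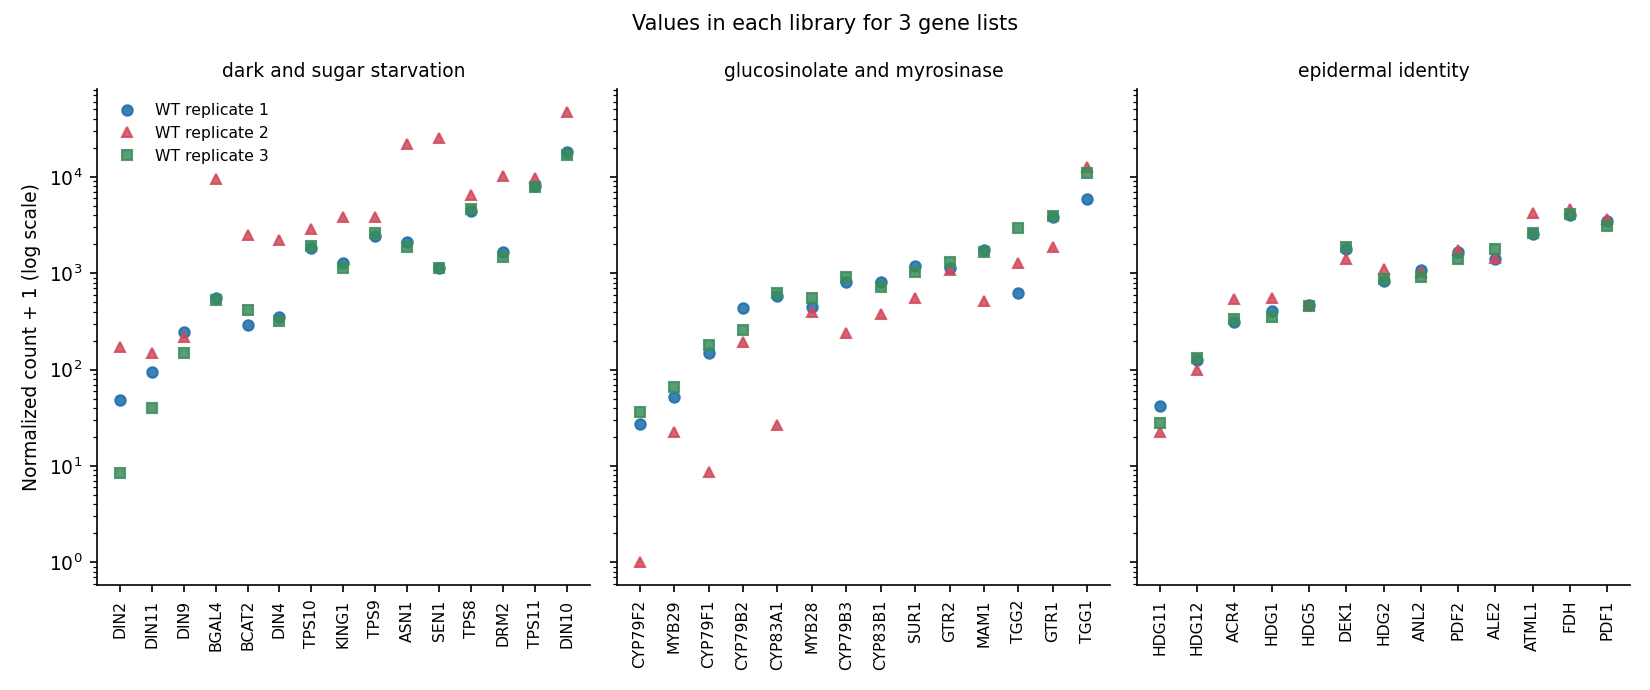
Normalized counts + 1 (y axis, log scale) in each WT library for the measured members of 3 gene lists (x axis, ordered by percentile). Replicate 2 is the highest in most genes of the starvation list and the lowest in most glucosinolate genes. In the epidermal identity list no measured gene is over 2-fold above or below both others in any library, and ATML1 is highest in replicate 2.

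The promoter of SEN1 is shown because it belongs to the gene furthest above in that list with an I box before its start. It lies on the plus strand at chr4:16944628-16944877 of TAIR10.1, and capitals mark I boxes on the opposite strand, 96 and 35 bases before the start.
SEN1: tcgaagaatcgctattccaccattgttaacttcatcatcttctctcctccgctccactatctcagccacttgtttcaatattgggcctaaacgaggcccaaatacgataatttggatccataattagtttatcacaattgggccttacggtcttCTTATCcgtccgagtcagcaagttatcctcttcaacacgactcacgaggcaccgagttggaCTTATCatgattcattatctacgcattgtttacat
An I box was in 8 of the 15 starvation list genes, in 21.5% of 856 genes above both others in replicate 2, in 11.5% of 1596 genes below, and in 14.8% of all measured genes. The evening element (AAAATATCT), a sequence known from genes that peak at dusk, was in 6.54% of the genes above, 2.44% of those below and 2.94% of all measured genes. Both motifs were chosen after values had been seen. CCL, a gene known for clock control of its mRNA stability, carried the largest excess among genes with an evening element before the start. It had 391, 6418 and 394 normalized counts, and its promoter is at chr3:9827432-9827681 on the plus strand. Capitals mark the element, 93 bases before the start.
CCL: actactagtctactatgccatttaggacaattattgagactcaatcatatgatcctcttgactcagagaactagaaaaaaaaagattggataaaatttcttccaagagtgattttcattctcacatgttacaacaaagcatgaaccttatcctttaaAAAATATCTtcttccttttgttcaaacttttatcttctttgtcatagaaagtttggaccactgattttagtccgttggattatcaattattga

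Genes of the circadian clock differed between the libraries in both directions. LHY and CCA1, related factors that peak at dawn, had 1237, 370 and 1249 and 1500, 665 and 1430 normalized counts, and replicate 2 was the lowest in both. PRR7 and GI, which follow later in the day, had 1342, 4567 and 1343 and 626, 1426 and 591, with replicate 2 the highest. TOC1, the evening repressor of both, was the most abundant clock gene per kilobase at 3359, 5201 and 3447. ELF4 was the lowest measured at 19.1, 15.4 and 13.3. In all, 2 of 11 measured clock genes were above both others by over 2-fold in replicate 2, PRR7 and GI, against 4.41% of all measured genes. Another 3 were below, LHY, CCA1 and RVE8, against 8.19%. The clock list was chosen with earlier results of these data known, so its counts are no independent evidence of a direction. The labels give no time of day for the harvest of any library.

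Of the 66 measured genes described as chlorophyll-binding or photosystem, 2 were above and 3 below both others by over 2-fold in replicate 2. These are 3.03 and 4.55%, both below the 4.41 and 8.19% of all measured genes, so nothing is read from them about the class. Single genes of photosynthesis lay on either side. LHB1B1, an antenna gene named after its values were seen, had 30508, 95243 and 24864 normalized counts, and LHCA4 had 72934, 94264 and 61792, with replicate 2 the highest in both. RCA, which keeps Rubisco active, had 146227, 86148 and 125058, and RBCS3B had 97414, 62029 and 83620, with replicate 2 the lowest in both. By their descriptions RCA and RBCS3B are not in the class of chlorophyll-binding or photosystem genes. LHCA4, RCA and RBCS3B did not pass 2-fold.

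The genes furthest below both others in replicate 2 were TAT3, CYP83A1, BFN1, CYP79F1 and RNS3. TAT3, a tyrosine aminotransferase gene that jasmonate raises, had 421, 10.2 and 434 normalized counts. CYP83A1 and CYP79F1, enzymes that make aliphatic glucosinolates, had 574, 25.6 and 622 and 149, 7.69 and 181. BFN1 had 184, 8.97 and 358 normalized counts, and RNS3 had 529, 34.6 and 510. In the glucosinolate list 7 of 14 genes were below both others in replicate 2, against 8.19% of all measured genes, and none above, and its median percentile was 73.9 without that library and 65.1 with it. CYP79F2, the lowest member, had 27, 0 and 35 normalized counts. The myrosinase gene TGG1, which is active in myrosin cells and guard cells and was the highest member, had 5927, 12742 and 10819 normalized counts and was not among the 7. In the flavonoid list 3 of 11 measured genes were below in replicate 2, against the same 8.19%. TT4, the chalcone synthase, led that list at 4419, 1897 and 4105 normalized counts, and TT7 was the lowest at 15.9, 7.69 and 30.0. The glucosinolate and flavonoid lists were chosen with earlier results of these data known, so their counts are no independent evidence of a direction.

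Replicates 1 and 3 had fewer genes apart. The 5 furthest above both others in replicate 1 were PRA1.E, AT5G55050, WR3, AT4G15610 and AT4G12450. Of these AT4G15610 and AT4G12450, at 1.995-fold and 1.94-fold, did not pass 2-fold. PRA1.E, of a family that acts in vesicle traffic, had 399, 146 and 188 normalized counts, and the nitrate transport gene WR3 had 233, 101.2 and 115.9. The 5 furthest below in replicate 1 were CYP78A5, GRF5, OASA2, AT5G51590 and AT2G41470. CYP78A5, which promotes organ growth, had 54.1, 419 and 180 normalized counts, and GRF5, a growth-regulating factor gene, had 40.3, 219 and 114. In both genes replicate 2 was the highest, with replicate 3 between the others.

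In replicate 3 the 5 furthest above were GLUR2, TGG2, HA4, TOPP6 and BFN1, of which BFN1, at 1.94-fold, did not pass 2-fold. TGG2, the second myrosinase gene, had 618, 1285 and 2907 normalized counts, so that its percentile was 68.6, 84.6 and 93.8. The proton pump gene HA4 had 87.0, 66.6 and 185. The 5 furthest below in replicate 3 were SWEET10, RAB18, AT3G61198, CBSX5 and AT5G64110. SWEET10, a sugar transporter gene, had 81.7, 222 and 24.2 normalized counts, and RAB18, a dehydrin that abscisic acid raises, had 126, 260 and 47.5. In both genes replicate 2 was also over 2-fold above both others.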

How the data were processed

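Gene-level values of the 3 WT libraries were taken from the deposited normalized gene table, whose unit is a signal: the authors divided the read count of each gene by a size factor per library, as the deposited table is named for DESeq2. Every value was a whole multiple of 1 step per library (100% within 0.01), so whole reads were recovered. The submitters' processing notes name the TAIR10 build and, without roles, DESeq2, Bowtie2 2.5.0 and SAMtools 1.16.1, besides Trimmomatic 0.33, FastQC 0.11.9 and deepTools. The read counting program, and whether it used strand, is not given in the sources used here. Of measured genes 29.6% share bases with an opposite-strand gene, and this is not stated for every named gene.

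Exon unions, gene descriptions and promoters came from the RefSeq annotation of TAIR10.1, which matched 24108 of 24200 genes. Sequences are credited to RefSeq. Levels were divided by exon union length in kilobases. Dispersion was estimated with edgeR 4.0.16 in R 4.3.3 on the recovered reads, with an intercept only, and that step was tested on simulated data. Other steps used Python 3.11.15 and pandas 2.3.3. No test between groups was possible within 1 group.

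The members and the gene lists were chosen with earlier results of these data known. Of 440 list entries 19 had no match or no row and were counted as not measured. Genes were named by rule: the 3 markers, the 20 highest per kilobase and the 10 highest by normalized counts, the highest and lowest measured member of each list, the 5 genes furthest above and below both others in each library (mean of at least 100) and the 5 with the smallest SD of log2(normalized count + 1) at a mean of at least 1000. Other named list members, LHB1B1 and the genes whose promoters are shown were chosen after their values were seen. Alternatives covered scaling, filters, length, overlap, pseudocount, fold and leaving out each replicate. A deposited table of other features was not used.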

Additional observations from a re-analysis of the deposited data

How the results depend on the processing

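No paired analysis was possible because only 1 group was described. Leaving out 1 replicate gave a median rank spread of 2.51 to 5.34 points and 1188 to 5048 genes over 10 points. The lowest values were those without replicate 2. With 2 libraries left, a measured gene needed 10 or more normalized counts in both. Data of 2 libraries cannot give counts of genes apart. Without genes that share bases with an opposite-strand gene the 100 most abundant genes held 24.5% of the sum.

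Counts of genes apart depended on the filter and the fold. With no filter on low values, 962 genes were above and 625 below in replicate 1, 1468 above and 2590 below in replicate 2, and 1135 above and 524 below in replicate 3. At a mean of at least 50, 15 were above and 72 below in replicate 1, 937 below in replicate 2, and 26 above and 50 below in replicate 3. A pseudocount of 5 left 69 above in replicate 1. At a fold of 4 the counts above and below were 2 and 74 in replicate 1, 102 and 593 in replicate 2, and 2 and 41 in replicate 3. The cause was not tested. Across these alternatives replicate 2 had the most genes apart in each direction. List median percentiles moved by up to 21.2 points without the length correction.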
